A study of Homo sapiens with 18 samples.

Results

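The regions described here are the 216 H3K4me3 regions of NB4 cells that were called in maltonis-treated and not in untreated cells. They were found by merging the H3K4me3 peaks of 6 libraries on chromosomes 1 to 22 wherever peaks shared at least 1 bp, which gave 26539 merged regions. A gained region had a peak in all 3 libraries of maltonis-treated cells and in none of the 3 libraries of untreated cells, and 0.814% of the merged regions met this rule. The opposite pattern defined 441 lost regions (1.66%), and 12099 constant regions had a peak in all 6 libraries. NB4 is an established human cell line from acute promyelocytic leukemia, and maltonis is a synthetic molecule derived from maltol. The treated cells received 10 µM maltonis for 24 h, the other cells were left untreated, and chromatin immunoprecipitation with sequencing (ChIP-seq) of H3K4me3, H3K27ac and H3K9me3 gave 3 libraries per mark and condition, 18 in all. Every library came from this 1 cell line. The words before and after refer below to untreated and maltonis-treated libraries, not to time points. Its identity was not checked here, since no gene annotation of the genome build of the lists (hg19) was used, and for the same reason regions are named by position.

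Trimethylation of lysine 4 on histone H3 (H3K4me3) is laid down around the start sites of active genes, and weaker or narrower H3K4me3 also occurs at active enhancers. Acetylation of lysine 27 (H3K27ac) marks active promoters and enhancers and often spreads over several kilobases around them. Trimethylation of lysine 9 (H3K9me3) is the classical mark of heterochromatin and of silenced repeats.

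The H3K4me3 lists held 15418 to 17333 peaks per library on these chromosomes, the H3K27ac lists 31417 to 35595 and the H3K9me3 lists 29277 to 34870. Deposited reads inside peaks ranged from 17659587 to 20412339 per H3K27ac library and from 2584920 to 3344547 per H3K9me3 library, whereas the H3K4me3 lists carry no read counts. Within an H3K4me3 list, neighbouring peaks lay at least 2401 bp apart, so no peak could lie right beside another one of the same library.

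The gained regions were narrow and weak H3K4me3 peaks, and the values that follow describe regions selected from these same lists, with no test. Their median peak width was 740 bp, 740 bp and 722 bp in the 3 maltonis libraries, or 734 ± 10.4 bp (SD, n = 3). Constant regions were wider in the same libraries, with a median of 1724 ± 22.5 bp (SD, n = 3). Fold enrichment, the signal of a peak relative to the local background of the caller, had medians of 2.90, 3.01 and 2.92 over the gained regions. These stood below the constant regions, whose medians were 4.10, 4.26 and 4.14 in the same libraries. Lost regions, read in the untreated libraries, resembled the gained ones, with a median width of 660 ± 13.1 bp (SD, n = 3) and a median fold enrichment of 2.93 ± 0.0153 (SD, n = 3). All 216 gained regions ranked below the middle of all 3 lists by −log10 q, the significance value of a peak. At 53 of them the −log10 q was at least 3 in all 3 libraries, at 2 it was at least 10, and at 105 the weakest of the 3 peaks lay below 2.

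**Figure D1:**
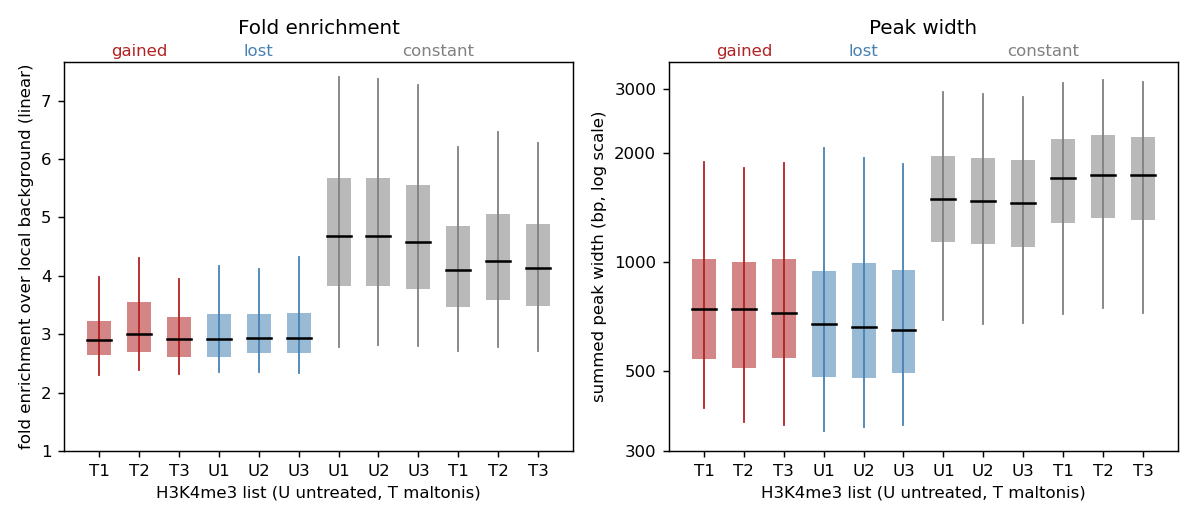
Fold enrichment over local background (left, linear axis) and summed peak width in bp (right, log axis) of H3K4me3 regions in each list, U for untreated and T for maltonis libraries. Boxes span the middle 50% of regions, black lines are medians and whiskers reach the percentiles 5 and 95. The gained regions have medians of 2.90 to 3.01 and 722 to 740 bp, below the constant regions in every list.

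The extent of a gained region differed between the 3 maltonis libraries. The merged regions had a median width of 1080 bp (392 to 5068 bp), while the stretch under a peak in all 3 libraries had a median of 438 bp, and at 7 regions the 3 peaks shared no base. Peaks of at least 1000 bp in all 3 libraries were found at 18 gained regions, and 113 had no such peak in any. Regions just outside the rule were similar but weaker. The 379 regions with a peak in 2 maltonis and no untreated library had a median width of 594 bp, a median fold enrichment of 2.75 and a median −log10 q of 1.82, against 734 bp, 2.94 and 2.80 for the gained regions. At the 264 regions with peaks in 3 maltonis libraries and 1 untreated library, the maltonis peaks had a median fold enrichment of 2.86 and the untreated peak one of 2.69. Gained and nearly gained regions thus covered overlapping ranges of weak peaks.

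The strongest gained region by mean fold enrichment was chr20:30556116-30557181, at 4.93, 5.25 and 4.83 in the 3 maltonis libraries. Next came chr14:60650640-60651317 at 5.34, 4.65 and 5.02, and chr5:100082037-100082807 at 5.12, 4.92 and 4.44. All of these exceed the medians of the constant regions in the same libraries, and 6 of the 216 gained regions reached a fold enrichment of 4 in all 3 libraries. The narrowest merged region of the strongest 10 was chr18:47824029-47824495, with peaks of 398, 425 and 442 bp and folds of 4.21, 4.64 and 4.91. Its H3K27ac peak held 61, 47 and 60 reads in the untreated libraries and 74, 110 and 89 after maltonis, over peaks of 600 to 1200 bp before and 1200 to 2000 bp after. In reads per kb the conditions overlapped, at 61.0, 78.3 and 50.0 before and 61.7, 55.0 and 49.4 after. Summed reads of the merged H3K27ac region, chr18:47822601-47825600, were called higher after maltonis in the read test described further on. The log2 fold change was 0.73 (SE 0.20, FDR 0.00883 by edgeR's quasi-likelihood test). The last of these 10, chr15:51973178-51974401, had folds of 3.96, 4.59 and 4.07 and peaks of 1007 to 1128 bp. Over all gained regions the mean fold ran from 1.92 to 5.00 with a median of 2.96, and the SD between the 3 libraries had a median of 0.200.

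At the widest gained regions most of the width came from 1 library. At chr7:61784451-61789518, the widest, the peaks measured 1872, 387 and 5068 bp and their fold enrichment was only 2.00, 2.12 and 2.11. It lay inside an H3K9me3 peak of 23000 to 25000 bp in all 6 libraries, with 1233, 1287 and 1312 H3K9me3 reads in the untreated and 1380, 1354 and 1157 in the maltonis libraries, so that the conditions overlapped. The second widest, chr3:18020275-18024325, had peaks of 951, 4051 and 935 bp inside an H3K27ac peak of 35600 to 60800 bp in every library. At chr12:56972855-56976222 the peaks measured 870, 3368 and 691 bp. The H3K27ac peak around it held 889, 2814 and 2672 reads before treatment and 455, 541 and 435 after it. Its called length was 6600, 24000 and 22200 bp before and 5200 to 6600 bp after. Reads per kb were 135, 117 and 120 before and 71.1, 82.0 and 83.7 after, so the conditions overlapped neither in reads nor in reads per kb. Summed over the whole merged H3K27ac region, chr12:56955801-56982400, the log2 fold change was −0.29 (SE 0.03), which did not pass the fold criterion of 0.58 in the read test described further on.

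The distance between gained and constant regions addressed whether the gained calls lay beside H3K4me3 peaks called in both conditions. Gained regions stood at much the same distance from constant regions as constant regions from each other. The gap from a gained region to its nearest constant region had a median of 31.7 kb (95% interval of the median 24.6 to 42.6 kb), with quartiles at 13.1 and 82.3 kb. Constant regions had a median gap of 34.8 kb to the next constant region and lost regions one of 39.4 kb. None of the 216 lay within 1 kb of a constant region, 11 lay over 1 to 5 kb away, 30 over 5 to 10 kb, 95 over 10 to 50 kb and 80 beyond 50 kb. Thus 41 (19.0%, Wilson interval 14.3 to 24.7%) lay within 10 kb, against 17.5% of constant and 15.9% of lost regions, and both of these shares fall inside that interval. The remaining 13783 regions, with any other pattern of calls, had 13.0% within 10 kb and a median gap of 44.1 kb. They include 5808 regions called in 1 untreated library only and 3560 called in 1 maltonis library only, the latter with a median gap of 53.0 kb. All distances come from the lists that chose the regions, so the classes are described side by side and were not tested. The intervals cover counting error only, and the spacing limit of the caller bears on the closest class, which was also empty for lost and constant regions. The nearest constant region stood to the right of the gained region, in chromosome coordinates, at 111 of the 216 and to its left at the others. These neighbours had a median fold enrichment of 4.06 in the untreated libraries, beside 4.65 for all constant regions.

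**Figure D2:**
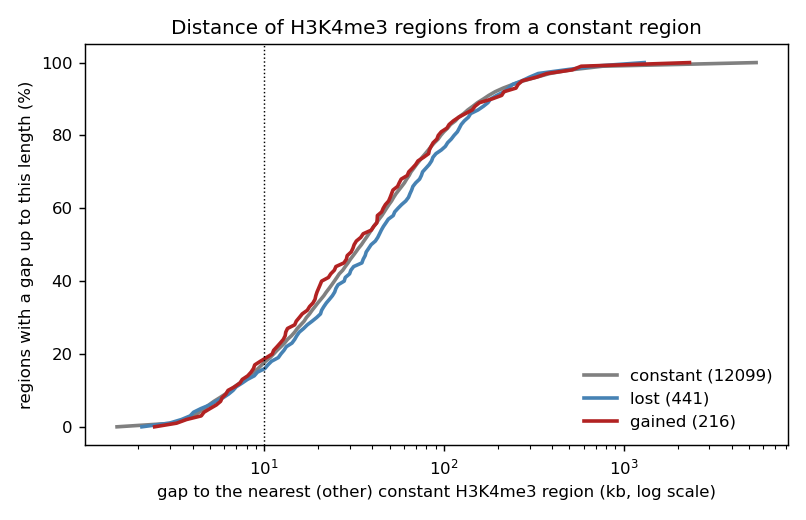
Share of gained, lost and constant H3K4me3 regions (y axis, %) whose gap to the nearest other constant region is no longer than the length on the x axis (kb, log scale). The dotted line marks 10 kb, within which lie 19.0% of gained, 15.9% of lost and 17.5% of constant regions, and the 3 curves run close together.

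The closest gained region, chr16:77710422-77712907, began 2.46 kb from a constant region, with weak folds of 2.08, 1.85 and 1.82. The following ones lay at chr1:236104778-236107218 (2.76 kb), chr2:43446086-43447609 (3.21 kb), chr3:193859531-193860510 (3.51 kb) and chr12:13249912-13250681 (3.55 kb). All 5 carried H3K27ac peaks in all 6 libraries. The chr2 region had the highest −log10 q of the 5, at 6.67, 9.03 and 10.7, with folds of 2.04, 2.06 and 2.35.

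At the other end, chr6:68176870-68178187 lay 2327 kb from any constant region, in a stretch of 6158 kb between 2 constant regions that held 10 merged H3K4me3 regions. Its folds were 3.60, 3.54 and 3.60, and its H3K27ac peak held 286, 319 and 323 reads in untreated and 400, 476 and 389 in maltonis libraries. In reads per kb these were 84.1, 76.0 and 67.3 before and 118, 91.5 and 122 after, so the conditions did not overlap in either measure. The merged H3K27ac region, chr6:68174201-68179400, had a log2 fold change of 0.49 (SE 0.09), below the fold criterion of 0.58 in the read test. Next was chr6:31323723-31324288 at 2214 kb, with folds of 3.14, 3.65 and 3.15 and no H3K27ac or H3K9me3 peak in any library. The 5078 kb between the constant regions on its sides held 3 merged H3K4me3 regions in the lists of this mark and 9 H3K27ac peaks over 6 libraries together, so lists of both marks were nearly empty there, for a reason that was not tested. At chr13:71864568-71865768, 572 kb from a constant region, H3K27ac was absent from all 6 lists and H3K9me3 present in all 6, with 33, 38 and 62 reads over 1800 to 4000 bp before and 106, 72 and 70 over 2800 to 5000 bp after maltonis.

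Gained regions were scattered over the genome. The median gap from one to the next was 3802 kb, and 13 had another gained region within 50 kb, in 6 groups. The largest group was 3 regions between positions 43385511 and 43447609 of chromosome 2. The tightest pair lay 4.05 kb apart on chromosome 11, from 95097941 to 95104208. A lost region was found within 50 kb of 1 gained region (0.463%), whereas 3.85% of constant regions had one. Relative to the number of constant regions, gained regions were most numerous on chromosome 13 (10 regions, 41.3 per 1000 constant regions) and on chromosome 18 (6 regions, 34.9 per 1000). They were scarcest on chromosome 19 (6 regions, 6.87 per 1000) and on chromosome 17 (7 regions, 9.55 per 1000). These counts are small and are given as a description.

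Most gained regions also carried H3K27ac in untreated cells. An H3K27ac peak overlapped 194, 194 and 195 of the 216 in the untreated libraries and 203, 204 and 207 in the maltonis libraries. The share was 90.0% ± 0.289 before and 94.7% ± 0.945 after treatment (SD, n = 3 each), and the 3 treated libraries all stood above the 3 untreated ones. The difference had the other sign elsewhere. The share was 78.2% ± 0.115 before and 73.9% ± 0.529 after over all merged regions, 98.3% and 97.8% over constant regions, and 79.1% ± 2.64 and 50.0% ± 1.80 over lost regions. In all 6 libraries, H3K27ac was called at 190 gained regions (88.0%), beside 96.7% of constant and 44.9% of lost regions. Gained regions wholly enclosed by an H3K27ac peak made up 86.1% ± 1.56 before and 90.3% ± 1.23 after treatment (SD, n = 3).

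**Figure D3:**
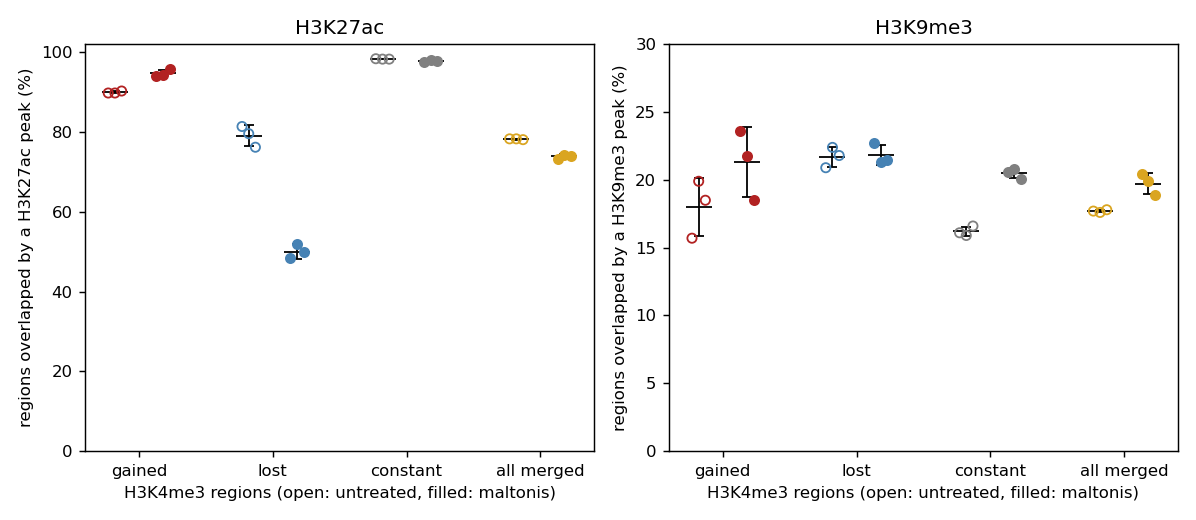
Percent of H3K4me3 regions overlapped by an H3K27ac peak (left) or an H3K9me3 peak (right) in each library, for gained, lost, constant and all merged regions. Open points are untreated and filled points maltonis libraries, with the mean as a bar and the SD as whiskers (n = 3); H3K27ac overlap of gained regions is 90.0% before and 94.7% after treatment, while that of lost regions is 79.1% and 50.0%.

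At 7 gained regions (3.24%) H3K27ac was called in all 3 maltonis and no untreated libraries, a pattern seen at 0.377% of all merged H3K4me3 regions and 0.149% of constant regions. The reverse pattern occurred at none of the gained regions and at 2.71% of all merged regions. A region without an untreated peak has no deposited untreated read count, so only the treated values can be given. The most reads were at chr10:102325076-102326944, with 508, 577 and 562 over 8000 to 8800 bp. At chr17:65220155-65221037 the treated libraries held 242, 220 and 148 reads, and at chr1:53036933-53038516 they held 208, 194 and 119. The chr20 region with the highest H3K4me3 fold belonged to this group, with 71, 167 and 92 H3K27ac reads, as did the chr15 region that was last of those 10, with 93, 83 and 76. The remaining ones were chr19:522529-523322, with 126, 131 and 110 reads, and chr19:41882294-41882965, with 42, 55 and 54. Their mean H3K4me3 fold had a median of 3.31, against 2.93 for the 190 regions with H3K27ac throughout. A further 9 gained regions (4.17%) had H3K27ac in no library, beside 0.942% of constant and 15.4% of lost regions. These 9 had a median fold of 3.31 and a median width of 493 bp.

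The H3K27ac peaks over gained regions were long ones. Among all H3K27ac peaks of a library their median width stood at percentile 80.6 ± 1.34 before and 78.3 ± 1.46 after maltonis (SD, n = 3). Over constant regions it stood at 73.4 and 76.5, over all merged regions at 70.5 and 71.9 and over lost regions at 43.2 and 47.8. Long H3K27ac peaks were thus not particular to gained regions. Over the 190 regions with H3K27ac in every library, the median peak length was 8.93 ± 0.802 kb before and 7.50 ± 0.436 kb after treatment (SD, n = 3), and each treated library had a lower median than each untreated library. At 55 of the 190 (28.9%) every maltonis peak was shorter than every untreated peak, and at 13 (6.84%) every one was longer. Among all 18503 merged H3K4me3 regions with H3K27ac in every library, these shares were 24.5% and 4.12%. Every maltonis peak was shorter at 17.6% of constant and 53.5% of lost regions with H3K27ac throughout, so the gained regions stood between these classes, a difference that was not tested. The density of deposited reads in these peaks was 84.0, 78.7 and 85.3 reads per kb before and 85.8, 101 and 101 after, with all treated libraries above all untreated ones. As a percentile among the H3K27ac peaks of a library, the density at gained regions did not separate the conditions, at 69.6 ± 1.48 and 69.1 ± 0.902.

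Few gained regions lay in the same H3K27ac peak as their nearest constant H3K4me3 region. A single peak joined them at 35, 36 and 39 gained regions in untreated and at 32, 33 and 31 in maltonis libraries, so the numbers after treatment were all lower. This is 17.0% ± 0.985 and 14.8% ± 0.451 (SD, n = 3). For constant regions and their next constant neighbour the shares ranged from 9.53% to 10.6% before and from 8.36% to 9.52% after. In every library 24 gained regions were joined in this way, with a median gap of 6.07 kb, and 169 were joined in none, with a median gap of 47.1 kb. Of the 11 gained regions within 5 kb of a constant region, 9 were joined in all 6 libraries.

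H3K27ac read counts were compared over all 19504 H3K27ac regions called in every library, of which 184 held the 190 gained H3K4me3 regions with H3K27ac throughout; the other 26 gained regions were not tested. A region passed edgeR's quasi-likelihood test when its false discovery rate (FDR, adjusted by Benjamini-Hochberg) did not exceed 0.01 and its log2 fold change reached 0.58 upwards or downwards. On this rule 30 of the 184 had more reads after maltonis (16.3%) and 16 had fewer (8.70%). Over all regions tested, 8.05% had more and 19.5% had fewer. The balance of H3K27ac regions holding a gained H3K4me3 region thus ran opposite to that of all H3K27ac regions, while 138 of the 184 passed in neither direction. Their log2 fold changes ran from −1.42 to 1.80 with a median of 0.00, beside −0.02 for all regions, and 92 of the 184 were above 0. Of the 184, 50 also held a constant H3K4me3 region. Among the other 134, 27 had more reads (20.1%) and 14 fewer (10.4%), beside 6.79% and 31.5% of all 9031 H3K27ac regions without a constant region. The median log2 fold change of those 134 was 0.05, against −0.36 for the 9031. Of the 206 tested regions holding a lost H3K4me3 region, 2 had more and 103 fewer reads.

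**Figure D4:**
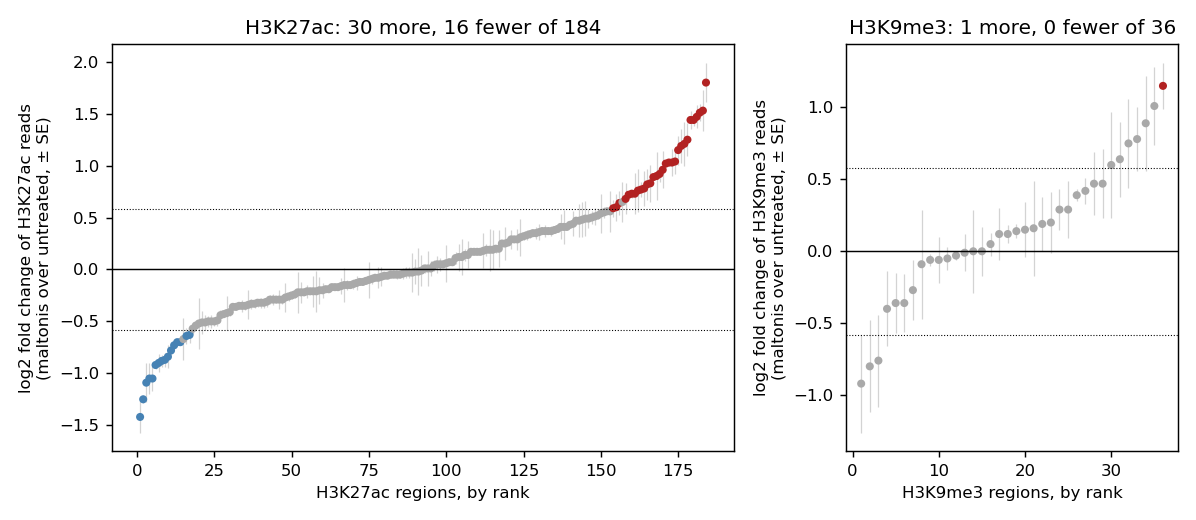
Log2 fold change of deposited reads, maltonis over untreated, with its standard error, for the 184 H3K27ac regions (left) and 36 H3K9me3 regions (right) that hold a gained H3K4me3 region, ordered by value. Red points passed the criteria with more reads (30 and 1), blue points with fewer (16 and 0), grey points did not pass, and dotted lines mark 0.58 and −0.58.

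The sum of reads over a region grows with the length that was called, and H3K27ac regions holding a gained region were longer (median called length 9.22 kb) than all regions (5.70 kb). With the called length as an offset in the same test, 13 of the 184 had more reads and 5 had fewer, against 2.18% and 4.61% of all regions. Of the calls in summed reads, 11 higher and 4 lower ones also passed with this offset. When each library was left out in turn, 22 of the 30 and 15 of the 16 calls passed every time. The members of the higher group had a median H3K4me3 fold of 3.20 and those of the lower group one of 2.89.

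Among the 5 regions called higher with the smallest FDR, chr3:169841001-169857200 changed most. It had 593, 684 and 578 H3K27ac reads in untreated and 1592, 1714 and 1568 in maltonis libraries, a log2 fold change of 1.44 (SE 0.06, FDR 8.08e-08 by edgeR's quasi-likelihood test, Benjamini-Hochberg adjusted). Its called length grew from 8067 to 15067 bp on average, and with the length offset the log2 fold change was 0.38. Chr13:32674601-32748600 holds a pair of gained regions and no constant one. Its reads were 4485, 4521 and 4778 before and 8616, 9489 and 9210 after, a log2 fold change of 1.03 (SE 0.03, FDR 1.07e-08). Chr11:95084001-95133000, which holds the tightest pair of gained regions, had 3544, 3938 and 3892 reads before and 6238, 7490 and 6686 after. At chr16:77707001-77747600, where the gained region closest to a constant one lies, reads went from 3294, 3523 and 3626 to 6437, 7193 and 6851. In chr7:6360001-6490000, a domain of 130000 bp with 4 constant regions, they went from 10662, 11195 and 11170 to 16212, 18716 and 17786, while its mean called length was 122600 bp before and 123467 bp after. The treated libraries stood above the untreated ones at all 5, in reads and in reads per kb. The separation in reads follows from picking the 5 by FDR on these same reads. With the length offset the 5 remained positive, between 0.32 and 0.55, but below the fold criterion.

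Among the 5 regions called lower with the smallest FDR, chr15:50531401-50560000 changed most. Its reads fell from 3498, 3646 and 3520 to 1383, 1473 and 1486, a log2 fold change of −1.25 (SE 0.04, FDR 1.29e-08 by edgeR's quasi-likelihood test, Benjamini-Hochberg adjusted), and it still passed with the length offset at −0.60 (FDR 9.05e-04). The gained H3K4me3 region inside it, chr15:50539867-50540556, had folds of 3.54, 3.24 and 3.05. In the untreated libraries the H3K27ac peak over this region held 387, 3646 and 3342 reads, since 1 library called a shorter peak there. In the maltonis libraries it held 324, 325 and 312 reads. At chr9:92020201-92064600 reads went from 2599, 2881 and 2681 to 1331, 1456 and 1410, at chr3:171666001-171707200 from 6231, 6361 and 6323 to 3560, 3930 and 3821, and at chr11:61587401-61611400 from 3784, 3872 and 3944 to 2165, 2532 and 2243. Chr6:144654401-144676800 had 1512, 1695 and 1627 reads before and 881, 971 and 877 after. The treated libraries did not overlap the untreated ones at these 5 regions, which follows from picking them by FDR on these reads. A new H3K4me3 call thus occurred in H3K27ac regions whose summed reads rose as well as in regions whose summed reads fell. In the H3K27ac peak over the gained region itself, reads per kb overlapped between conditions at chr15, chr9 and chr6 of the lower group. They did not overlap at chr3 and chr11 of that group, and in the higher group they overlapped only at chr16.

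**Figure D5:**
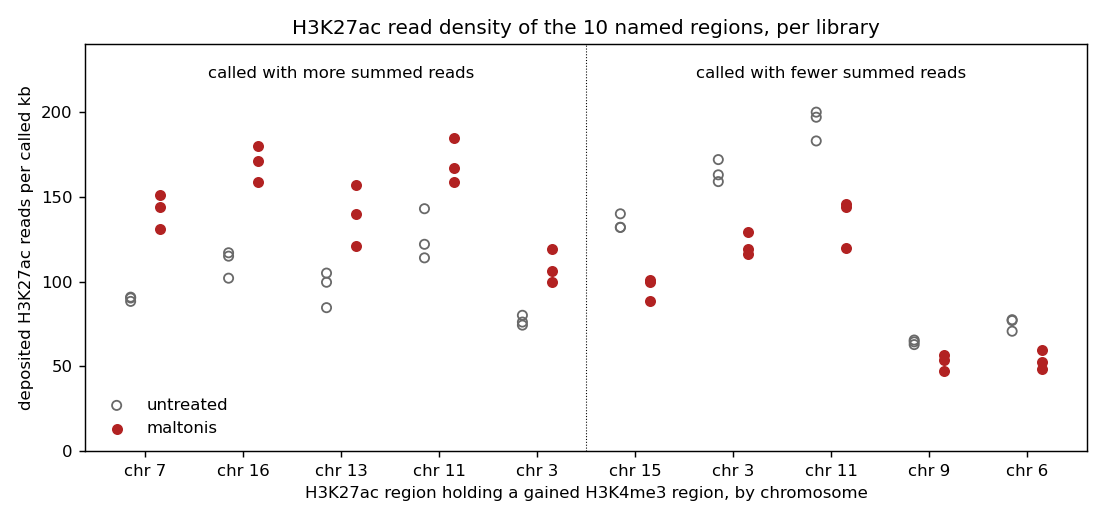
Deposited H3K27ac reads per called kb in each library (y axis, from 0) for the 10 H3K27ac regions named above, 5 called with more and 5 with fewer summed reads, labelled by chromosome. Open points are untreated and filled points maltonis libraries (n = 3 each). The conditions do not overlap at any of the 10 regions, which were picked by the FDR of their summed reads.

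H3K9me3 was present at fewer gained regions. Its peaks overlapped 34, 43 and 40 of the 216 in untreated and 51, 47 and 40 in maltonis libraries, or 18.0% ± 2.14 and 21.3% ± 2.59 (SD, n = 3), and the conditions overlapped. At constant regions the share was 16.2% ± 0.361 before and 20.5% ± 0.361 after, without overlap between conditions, and at all merged regions 17.7% and 19.7%. No library had H3K9me3 at 141 gained regions (65.3%), beside 64.6% of constant and 62.4% of lost regions. All 6 libraries had it at 19 gained regions (8.80%), beside 7.07% of constant and 10.4% of lost regions. The other 56 gained regions had it in 1 to 5 libraries. More maltonis than untreated libraries carried it at 29 gained regions, and fewer did at 18. This split was not counted over all merged regions, where the share also rose, from 17.7% to 19.7%. The 19 regions with H3K9me3 throughout lay farther from constant regions, with a median gap of 85.2 kb against 30.4 kb for the 141 without it. Their mean fold had a median of 2.66, against 3.01. H3K27ac was also called in all 6 libraries at 16 of these 19. These contrasts were not measured in the other classes, so they are not given as traits of gained regions.

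At 5 gained regions (2.31%) H3K9me3 was called in all 3 maltonis and no untreated libraries, beside 1.11% of all merged and 1.72% of constant regions, and at 1 gained region in the reverse way, beside 0.399% of all merged regions. The 5 were chr2:98765121-98766416, chr13:32691608-32693710, chr13:40024554-40027438, chr16:50685320-50685837 and chr18:10111143-10113066. At 3 of the 5 the pattern concerned the extent of an H3K9me3 peak, since they lay in merged H3K9me3 regions called in all 6 libraries whose reads did not pass the test. The log2 fold changes were 0.29 (SE 0.14) at chr13:32691401-32709800, 0.12 (SE 0.18) at chr13:39999401-40028200 and 0.15 (SE 0.19) at chr18:10103401-10112800. At the first chr13 region the treated peaks held 276, 321 and 152 H3K9me3 reads over 7000 to 18400 bp. This region lies in the H3K27ac domain of chromosome 13 in which H3K27ac reads rose, and its 3 H3K4me3 peaks shared no base. At the chr16 region, where no library had H3K27ac, the treated peaks held 53, 64 and 55 H3K9me3 reads. The reverse case, chr3:45208164-45209596, had 47, 36 and 47 H3K9me3 reads in untreated libraries and H3K27ac in all 6.

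H3K9me3 reads were tested over 14165 regions called in every library, 36 of which held 39 gained regions. By edgeR's quasi-likelihood test with the same criteria, 1 of the 36 had more reads after maltonis and 0 had fewer, beside 0.254% and 0.0141% of all regions and 0.194% and 0.0156% of those without a constant H3K4me3 region. DESeq2 also called 1 and 0, beside 0.911% and 0.240% of all regions. At an unadjusted p below 0.05, 9 were higher and 3 lower by either tool. The share of all regions at that threshold was not counted, so no lean of the gained regions can be read from these counts. The higher one was chr2:60316801-60332000, whose gained H3K4me3 region at 60327345 to 60328541 lay 448 kb from a constant region. It had 157, 121 and 135 H3K9me3 reads before and 331, 269 and 250 after, without overlap, a log2 fold change of 1.15 (SE 0.16, FDR 0.00535 by edgeR's quasi-likelihood test, Benjamini-Hochberg adjusted). Its reads per kb went from 13.8, 15.5 and 14.4 to 23.6, 22.8 and 21.6. The call did not pass when any 1 of the 6 libraries was left out, with log2 fold changes of 1.06 to 1.28 and FDRs of 0.0102 to 0.0316. H3K27ac covered the same gained region in all 6 libraries, with 2706, 2942 and 3067 reads in the peak over it before and 3341, 4004 and 3696 after.

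The commonest combination at a gained H3K4me3 region was H3K27ac in all 6 libraries and H3K9me3 in none, found at 122 of the 216. Both parts of it were also common at constant regions, where 96.7% had H3K27ac in all 6 libraries and 64.6% had H3K9me3 in none. The combinations were not counted there, so they are not given as traits of gained regions. H3K27ac and H3K9me3 were both called in all 6 libraries at 16. H3K27ac was called in none and H3K9me3 in at least 1 at 4 regions.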

How the data were processed

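ChIP-seq peak lists of 18 libraries were used, 1 list per library, grouped by the sample titles. The submitters' processing notes name BWA, SAMtools, MACS2, SICER and the build hg19, with no versions. The authors called H3K4me3 peaks with MACS2 in broad mode. Each deposited H3K4me3 peak carries a score, a fold enrichment over local background and −log10 p and −log10 q values, which were read only within a list. The authors called H3K9me3 and H3K27ac peaks with epic2, which joins windows of 200 bp, and each deposited peak carries a read count, not normalised, and an island score. A deposited count refers to the peak as called in that library. The study describes its replicates as biological triplicates. Control libraries, total reads and caller parameters were not used here, and peak lists do not measure the total amount of a mark.

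Peaks were merged at an overlap of 1 bp or more. Gaps, overlaps and widths were computed in Python 3.11.15 with pandas 2.3.3. Where several H3K27ac or H3K9me3 peaks touched a region, the peak with most reads gave its length and density. Reads were summed over merged regions called in all 6 lists of a mark and tested with edgeR 4.0.16 (R 4.3.3) after TMM normalisation, with Benjamini-Hochberg adjustment over all regions. The cut-offs, an FDR not above 0.01 and a log2 fold change reaching 0.58 upwards or downwards, are those of the study's methods. The test was checked on simulated data. DESeq2 1.42.0, the called length as offset and other settings were alternatives. Wilson intervals are at 95% and cover counting error only, and reads were not known to be independent molecules. The members and lists were chosen with earlier results of these data known, so no p over the members is given. The regions named were the 10 with the highest fold enrichment, the 5 widest, the 5 farthest from and 5 closest to a constant region, those with a one-sided call pattern of another mark, and at most 5 per mark and direction by FDR, of which the text gives those that differ most. No genome or annotation of hg19 was used, so no genes, gene lists or sequences are given.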

Additional observations from a re-analysis of the deposited data

How the results depend on the processing

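Peaks were called per library, and a library without a peak gives no read count for that place, so an absent call is not a measured 0. With peaks of −log10 q of at least 3, the median width of gained regions was 956 bp, their median fold 3.40 and the rise in H3K27ac overlap 2.29 percentage points. With the strongest 75% of peaks there were 126 gained regions, 12.7% within 10 kb of a constant region, at 936 bp and a fold of 3.50, and the rise was 3.17. With equal numbers of peaks per list, the width was 773 bp and the rise 3.58. The rise was 7.72 points with the strongest 75% of H3K27ac peaks. Leaving out 1 library at a time gave 303 to 353 gained regions, since a pattern over 5 lists is easier to meet, and the 332, 345 and 353 without a maltonis library exceeded the 216 by more than 1.5 times. Over these repeats the median width was 668 to 761 bp, the fold 2.81 to 2.94, the share within 10 kb 17.2% to 21.2%, the median gap 28.3 to 32.6 kb, the H3K27ac rise 3.49 to 5.17 points and the H3K9me3 rise 2.08 to 4.63 points. The settings that leave out an H3K27ac or H3K9me3 library were chosen after seeing the data. Restricting the H3K27ac test to regions of similar called length left 34 regions holding a gained region. Of these, 1 was higher (2.94%) and 1 lower (2.94%), beside 2.10% and 3.65% of all 1287 such regions. The opposite balance of the summed reads was thus not seen in these few calls, and the H3K9me3 test then called 0. With called length as offset, 13 H3K27ac regions were higher and 5 lower. Leaving out 1 library gave 24 to 30 higher and 16 to 17 lower H3K27ac regions holding a gained region. Over all H3K27ac regions, 7.63% to 7.94% were then higher and 17.5% to 18.8% lower. For H3K9me3 these repeats called 0 regions holding a gained region in both directions. The 99 other values of the comparisons moved less than the spread between libraries, their interval or 1.5 times, and no value reversed.

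The labels give both conditions the replicate numbers 1 to 3. Deviations of same-numbered libraries correlated between −0.02 and 0.03, and those of different-numbered libraries between −0.04 and 0.03. A pairing by number was thus not visible in these values, which cannot exclude one. With the replicate number as a block, 28 H3K27ac regions holding a gained region were higher and 16 lower, beside 7.85% and 19.0% of all regions. The H3K9me3 region of chromosome 2 then no longer passed (log2 fold change 1.16, FDR 0.0120 by edgeR), which left 0 H3K9me3 calls at gained regions. No sample could stand out by the criterion for groups of 4 or more, since each group had 3.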
